A study of Mus musculus with 12 samples.

Results

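The subject here is the Pml dependence of the liver's response to acetaminophen (APAP) at 6 h, taken gene by gene as the KO response minus the wt response. Each response is the mean log2 intensity at 6 h after APAP minus that of untreated liver of the same genotype, and their difference is called the interaction. It rests on 8 of the 12 arrays of the study, 2 in each of 4 groups. The groups were Pml KO liver 6 h after APAP, untreated Pml KO liver, Pml wt liver 6 h after APAP and untreated Pml wt liver. The other 4 arrays, from KO and wt liver 2 h after APAP, do not enter the difference itself, but they add to the spread that limma estimates over all 12 arrays, and their levels are set beside it. Among the 17052 genes tested, 83 passed limma's test of the interaction at an adjusted p under 0.05, which is 0.487% of genes, and each was placed in a class by its response. With the 8 arrays alone, 62 genes were called, 47 of them among the 83.

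Total RNA of whole liver was measured on Affymetrix Mouse Gene 1.1 ST arrays, 1 array per sample. All mice were females of the BALB/cByJ strain aged 2.5 months, and the treated ones had received 300 mg/kg APAP by intraperitoneal injection in warmed PBS. The untreated mice served as the control. The sources used here do not give an injection of vehicle, the design of the Pml KO allele, or whether each sample came from its own animal. The p-values therefore measure only the spread between these samples, which may be technical.

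The PML protein builds the PML nuclear bodies, dot-like structures of the nucleus that take up many partner proteins and that change under oxidative stress and other insults. Hepatocytes around the central vein oxidise APAP to a reactive metabolite that uses up glutathione, damages mitochondria and activates stress kinases. The injured tissue then switches on early response genes, antioxidant genes and heat shock proteins, and releases signals that draw neutrophils into the liver.

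Pml itself had an interaction near 0. Its log2 intensity was 7.09 and 7.16 in KO liver at 6 h, 7.10 and 7.97 in untreated KO liver, 7.87 and 7.88 in wt liver at 6 h and 8.18 and 8.46 in untreated wt liver. The interaction was 0.04 ± 0.33 (SE, adjusted p = 0.966 in limma). The value of 7.97, of the array labelled untreated KO replicate 2, lay between those of wt liver at 6 h and untreated wt liver, and the array's 1 Pml probe set checks the label only if it lies in the deleted part. A further array stood apart: KO 6 h replicate 2 lay at 19.8 on the first principal component (49.4% of the variance), against 39.7 for its partner and 44.8 and 42.9 for wt at 6 h. Without untreated KO replicate 2, 18 genes were called in the interaction. Without KO 6 h replicate 2, 46 were called, and 13 without both. The defining markers of hepatocytes were high throughout, the lowest of 13 averaging a log2 intensity of 11.65.

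Of the 83 genes, 68 had a lower interaction (0.399% of all genes) and 15 a higher one (0.088%). In 48 genes the KO response was smaller than a called rise in wt liver, and in 5 it was smaller than a called fall in wt liver. A further 18 genes responded more strongly in KO liver, 6 with a rise and 12 with a fall. The remaining 12 had called responses of opposite sign. These classes rest on which responses were called, and by the signs and sizes of the responses alone 30 genes were weaker, 10 stronger and 43 opposite. As background, 5949 genes (34.9%) were called in the KO response, 15.8% of all genes with a rise and 19.1% with a fall. In the wt response 6554 (38.4%) were called, 16.5% with a rise and 22.0% with a fall. The classes are defined from the interaction and both responses, so their sizes and values are descriptions. In all 83 the KO and wt responses of single arrays did not overlap, as was so in 59.5% of all genes. Many calls were lost when an array was left out. Of the 83, 15 were called in each of 8 fits that left out 1 array, among them Gadd45g, Fos, Gprc5a, Cetn4, Ivl, Igfbp1, Atoh8 and Pck1, and 50 were called in 3 or fewer.

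**Figure D1:**
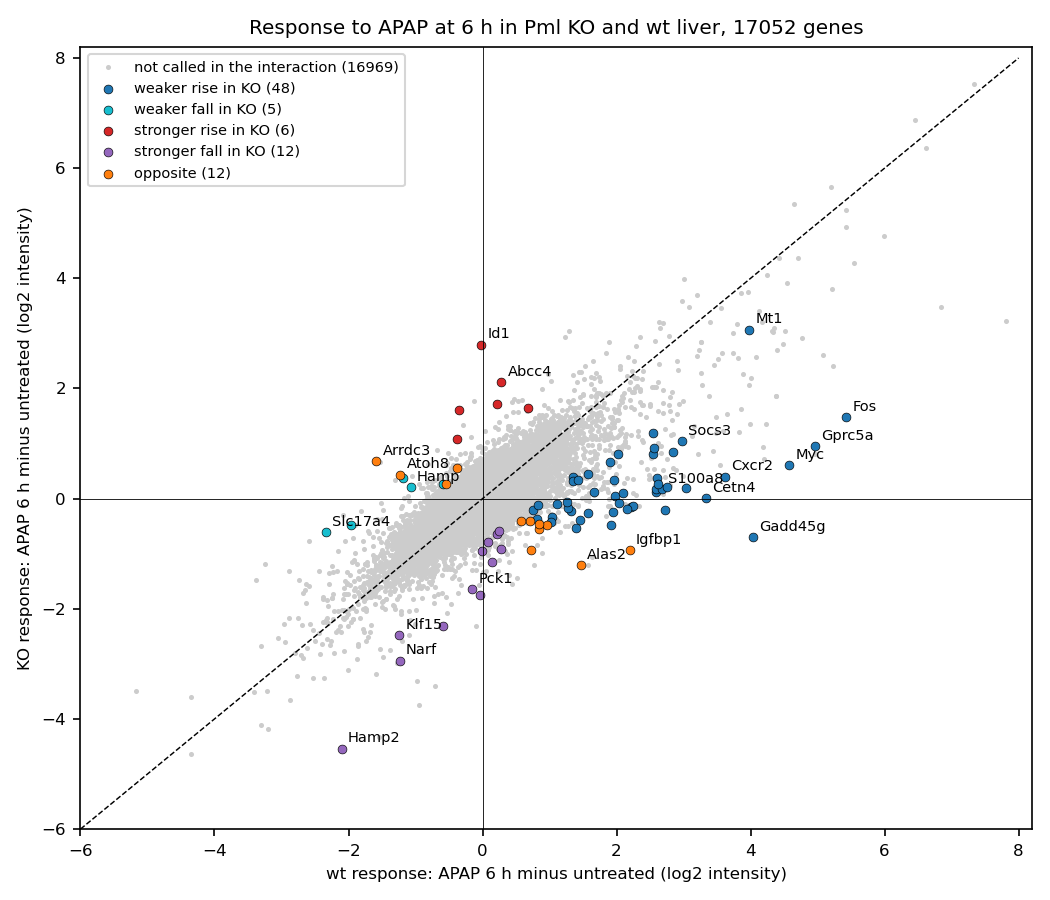
Response at 6 h in KO liver (vertical) against wt liver (horizontal), each as APAP 6 h minus untreated in log2 intensity, for 17052 genes. Coloured points are the 83 genes called in the interaction, and the dashed line marks equal responses. Of the coloured points 68 lie right of the line, and 35 of them have an uncalled KO response and a wt rise, as for Nrg4 at 0.19 in KO and 3.03 in wt liver.

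At the threshold the calls were close together. The members just inside were Pcdh1 (interaction 0.87 ± 0.16, adjusted p = 0.0465 in limma) and Ptpre (-1.25 ± 0.23, adjusted p = 0.0488). Just outside were Id2 (1.22 ± 0.22, adjusted p = 0.0530) and Psmd5 (0.80 ± 0.15, adjusted p = 0.0530).

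The immediate early genes are transcription factors and regulators that cells switch on within minutes of a stimulus and normally shut off soon after, and they held 6 of the 48 genes with a weaker rise. Of 39 measured, 18 rose and 1 fell in KO liver at 6 h, against 31 that rose and 0 that fell in wt liver. Over all genes, 15.8% rose in KO liver and 16.5% in wt liver. The interaction was below 0 in 36, beside 7950 of all 17052 genes. It was called in 6, all lower, namely Gadd45g, Myc, Fos, Ier2, Zfp36 and Egr2. Over all genes, 0.399% were called lower. The median interaction of the list was -1.45, beside 0.03 over all genes tested. Without KO 6 h replicate 2, 4 members were called, and without untreated KO replicate 2, 2 were. Without KO 6 h replicate 1, 20 were called.

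Fos encodes a subunit of the AP-1 transcription factor. Its log2 intensity was 5.61 and 5.00 in KO liver at 6 h and 3.98 and 3.67 in untreated KO liver, against 10.12 and 9.02 in wt liver at 6 h and 4.35 and 3.93 in untreated wt liver. The wt arrays at 6 h stood far above all others, while the KO arrays at 6 h lay above both untreated groups by a smaller step. Fos rose by 1.48 in KO liver and by 5.43 in wt liver on the log2 scale, an interaction of -3.95 ± 0.45 (adjusted p = 0.00615 in limma).

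Ier2, a short-lived nuclear regulator, lay close to the untreated level in KO liver. It stood at 6.98 and 6.30 in KO liver at 6 h and 6.30 and 6.65 in untreated KO liver, against 9.23 and 8.84 in wt liver at 6 h and 6.56 and 6.33 in untreated wt liver. The KO arrays of both conditions overlapped, and the wt arrays did not. The interaction was -2.43 ± 0.32 (adjusted p = 0.0112 in limma). Zfp36, which encodes the mRNA-destabilising protein tristetraprolin, had an interaction of -2.36 ± 0.41 (adjusted p = 0.0376). Egr2, a zinc finger transcription factor, rose by 0.84 in KO liver and 2.84 in wt liver, with an interaction of -2.00 ± 0.36 (adjusted p = 0.0451). Of the 8 fits without 1 array, Ier2 was called in 6, and Zfp36 and Egr2 in 2 each.

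Gadd45g was called higher in untreated KO than untreated wt liver, and Myc lay higher there without a call. The higher untreated KO value, 9.36 for Myc and 9.63 for Gadd45g, came from untreated KO replicate 2. Myc, a transcription factor that drives growth, stood at 10.01 and 8.66 in KO liver at 6 h and 8.09 and 9.36 in untreated KO liver, against 11.33 and 11.04 in wt liver at 6 h and 6.33 and 6.88 in untreated wt liver. Its KO arrays overlapped between conditions, and both untreated KO arrays lay above both untreated wt arrays. The interaction of -3.97 ± 0.62 (adjusted p = 0.0262 in limma) thus holds a higher start in KO liver by 2.12 ± 0.44 (adjusted p = 0.645) and a lower level at 6 h by -1.85 ± 0.44 (adjusted p = 0.0308). The interaction was called in 3 of 8 fits without 1 array, with an adjusted p of 0.0529 without KO 6 h replicate 2 and 0.0721 without untreated KO replicate 2.

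Gadd45g, a stress-induced partner of p38 and JNK kinase signalling, had the interaction of largest size among the 83, -4.74 ± 0.48 (adjusted p = 0.00324 in limma). It was at 8.74 and 8.09 in KO liver at 6 h and 8.59 and 9.63 in untreated KO liver, against 9.95 and 9.94 in wt liver at 6 h and 6.11 and 5.70 in untreated wt liver. Untreated KO liver lay above untreated wt liver by 3.21 ± 0.34 (adjusted p = 0.0370), and Gadd45g was the 1 gene of 17052 called between untreated livers (0.00586%). In 5 of the 83 genes the untreated difference between genotypes exceeded that at 6 h, and these were Gadd45g, Myc, Mt1, Arrdc3 and Olfr502. In the others the difference at 6 h was the larger. At 6 h, 81 of the 83 were called between KO and wt liver, the exceptions being Arrdc3 and Mt1. The share over all genes was 9.02%. That difference is part of the interaction by which the 83 were chosen, so their share is a description and not a separate result.

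For 3 of the early genes KO liver was called higher than wt liver at 2 h. At that time, Fos stood at 11.29 and 11.45 in KO liver against 9.47 and 9.74 in wt liver, higher in KO by 1.76 ± 0.32 (adjusted p = 0.0323 in limma). Egr2 stood at 10.41 and 10.75 in KO liver against 7.88 and 8.35 in wt liver, a difference of 2.47 ± 0.25 (adjusted p = 0.00366). Myc stood at 10.62 and 10.75 in KO liver against 8.23 and 8.33 in wt liver, a difference of 2.40 ± 0.44 (adjusted p = 0.0323). In these 3 genes KO liver was thus higher at 2 h and lower at 6 h, with no overlap of arrays at either time.

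Of the 39 early genes, 31 had a higher mean in KO liver at 2 h, and 30 of these had a lower mean in KO liver at 6 h. Only Fos, Egr2 and Myc of the 39 were called at 2 h, against 0.411% of all genes called higher there, whereas 23 were called lower in KO liver at 6 h, against 4.93% of all genes. The 2 h intensities had a lower median in KO than in wt liver over all genes, at -0.10 on the log2 scale. Among all 83 genes, 17 (20.5%) were called between genotypes at 2 h, where 2.01% of all genes were, 8 of them higher in KO liver and 9 lower. The 2 h test uses the same spread per gene as the interaction that chose the 83, so these shares are only set side by side. The interaction at 2 h was called in 5 genes (0.0293%), of which Arrdc3, Cetn4, Sftpa1 and Col12a1 are among the 83.

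**Figure D2:**
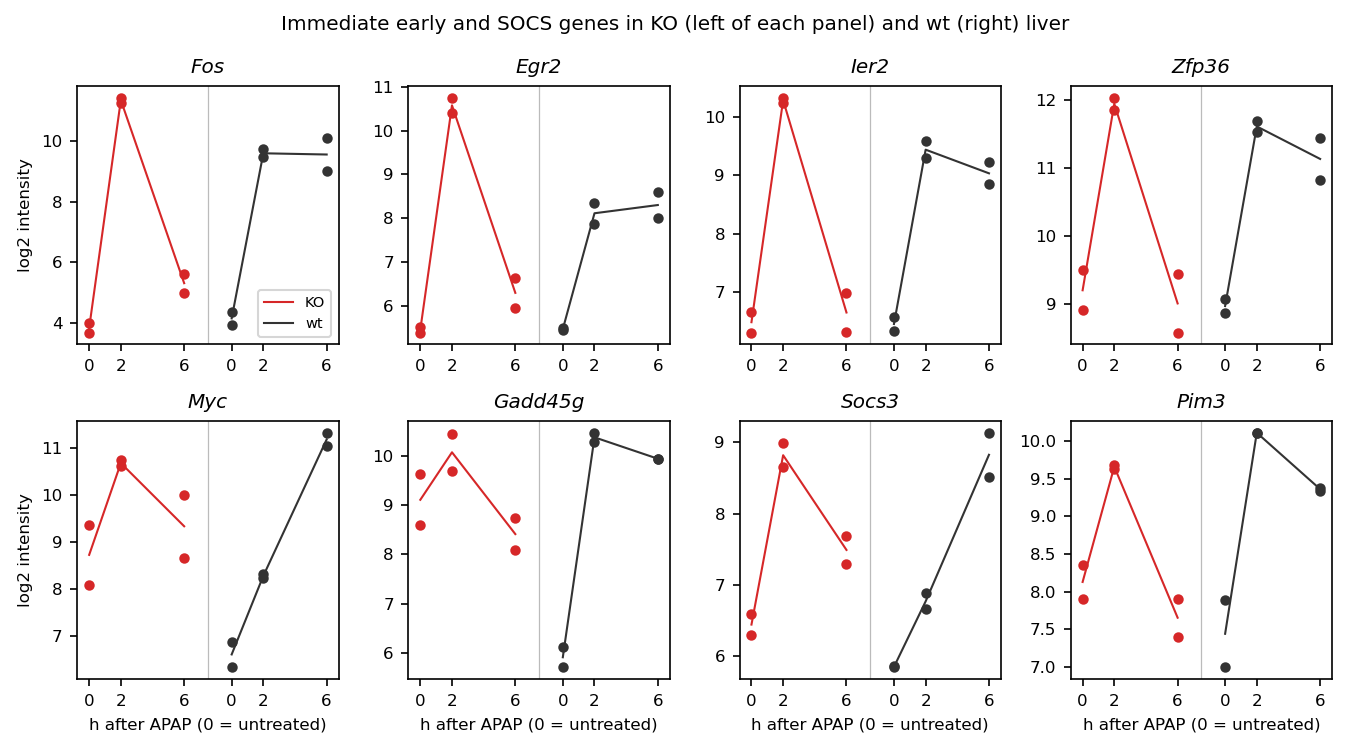
Log2 intensity of 8 genes with a weaker rise at 0 (untreated), 2 and 6 h after APAP, KO in red at the left of each panel and wt in black at the right; points are arrays and lines join group means of 2 arrays. Fos, Egr2 and Ier2 peak at 2 h in KO liver and lie near or moderately above untreated at 6 h, while the wt arrays at 6 h overlap those at 2 h for Fos and Egr2.

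Genes of IL-6 type signalling and its inhibitors held 2 called members of 18 measured, Socs3 and Pim3, both lower. Over all genes, 0.399% were called lower. IL-6 family cytokines act on hepatocytes through STAT3, which induces its own inhibitor SOCS3. The median interaction of the list was -0.57. With the 8 arrays of the interaction alone, 0 of its members were called, and 1 was called with the mean of the probe sets. Socs3 was at 7.29 and 7.69 in KO liver at 6 h and 6.30 and 6.59 in untreated KO liver, against 9.14 and 8.51 in wt liver at 6 h and 5.86 and 5.85 in untreated wt liver. Each 6 h group lay above its untreated group, and the KO arrays lay below the wt arrays at 6 h. The interaction was -1.93 ± 0.30 (adjusted p = 0.0262 in limma), while a second and dimmer Socs3 probe set gave -0.43.

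At 2 h the order of the genotypes was the other way round for Socs3, with 8.99 and 8.65 in KO liver against 6.66 and 6.88 in wt liver (2.05 ± 0.21, adjusted p = 0.00366 in limma). Pim3, a serine/threonine kinase of the PIM family, was at 7.90 and 7.40 in KO liver at 6 h and 7.90 and 8.36 in untreated KO liver, against 9.38 and 9.34 in wt liver at 6 h and 6.99 and 7.89 in untreated wt liver. Its KO response was -0.47 and not called (adjusted p = 0.188), its wt response a rise of 1.92, and the interaction -2.40 ± 0.37 (adjusted p = 0.0250). Neither gene was called without untreated KO replicate 2 (adjusted p of 0.110 for Socs3 and 0.0947 for Pim3).

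Neutrophil markers were not called in the KO response, while most rose in wt liver. Over all genes, 34.9% were called in the KO response and 16.5% rose in wt liver. Of 19 measured, 0 were called in KO liver in either direction by limma (1 at an unadjusted p under 0.05), against 13 that rose and 1 that fell in wt liver (16 at an unadjusted p under 0.05). The interaction was called in 5, all lower, against 0.399% of all genes called lower, with a median of -2.06 over the list. The called markers were Cxcr2, S100a9, S100a8, Hdc and Trem1. In whole tissue, fewer cells of a type and less RNA per cell cannot be told apart.

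Cxcr2 encodes the receptor through which neutrophils follow CXC chemokines. It stood at 6.47 and 6.20 in KO liver at 6 h and 6.05 and 5.82 in untreated KO liver, against 9.98 and 8.65 in wt liver at 6 h and 5.78 and 5.62 in untreated wt liver. Both wt arrays at 6 h stood well above the other 6, among which the KO arrays at 6 h were the highest. The interaction was -3.22 ± 0.48 (adjusted p = 0.0226 in limma).

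S100a8 and S100a9 encode the subunits of calprotectin, the abundant calcium-binding protein of neutrophil cytoplasm. S100a8 was at 6.85 and 6.82 in KO liver at 6 h and 6.63 and 6.69 in untreated KO liver, against 9.70 and 8.78 in wt liver at 6 h and 6.56 and 6.57 in untreated wt liver. S100a9 had a similar pattern, with an interaction of -2.54 ± 0.36 (adjusted p = 0.0183 in limma) against -2.50 ± 0.34 (adjusted p = 0.0132) for S100a8. Hdc, the enzyme that makes histamine, and Trem1, a receptor that amplifies myeloid activation, had interactions of -2.48 ± 0.41 (adjusted p = 0.0329) and -2.37 ± 0.41 (adjusted p = 0.0374). Unlike S100a8, Hdc was already high at 2 h in both genotypes, at 8.15 and 8.88 in KO liver and 8.15 and 7.93 in wt liver. Its untreated levels were 6.63 and 6.71 in KO liver and 6.31 and 5.73 in wt liver. At 2 h S100a8 was at 6.49 and 6.90 in KO liver and 6.78 and 6.73 in wt liver.

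The summed linear intensity of the 19 markers was 1410 and 1010 in KO liver at 6 h and 985 and 1050 in untreated KO liver, against 6180 and 3380 in wt liver at 6 h and 1010 and 958 in untreated wt liver. The wt arrays at 6 h differed from each other by more than the other 6 arrays did. The markers of granules made in the bone marrow, Mpo, Elane, Ltf and Camp, had interactions of 0.03, 0.42, 0.10 and -0.23 and were not called (adjusted p of 0.956, 0.604, 0.806 and 0.526 in limma). The number of called markers was 1 without KO 6 h replicate 2, 0 without untreated KO replicate 2, 0 without either untreated wt array and 8 without either wt 6 h replicate 2 or KO 6 h replicate 1.

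**Figure D3:**
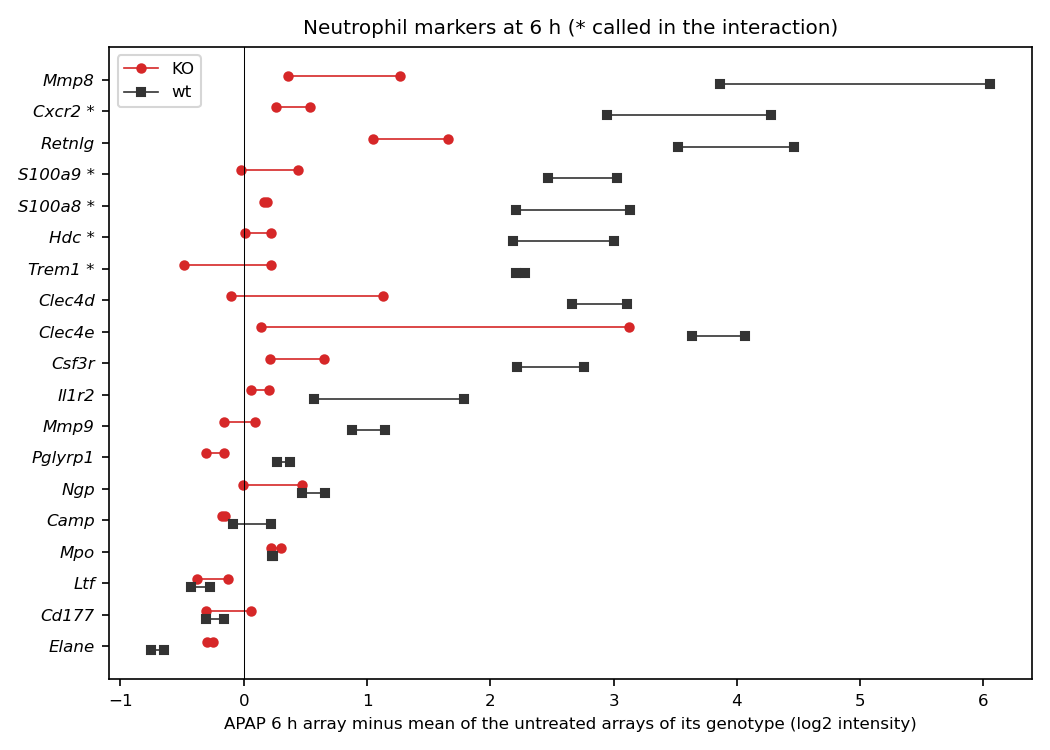
Response of 19 neutrophil markers at 6 h, each 6 h array minus the mean of the 2 untreated arrays of its genotype in log2 intensity, KO as red circles above wt as black squares; a line joins the 2 arrays of a group and an asterisk marks a called interaction. For Cxcr2, S100a8, S100a9, Hdc and Trem1 both KO points lie near 0 and both wt points lie above 2.

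Markers of the other non-parenchymal cells held no called interaction. With 0.487% of all genes called, a count of 0 in lists of this size says little. Of 24 Kupffer cell and macrophage markers, 14 lymphocyte and NK cell markers, 22 markers of sinusoidal endothelium and 19 of stellate cells and fibroblasts, 0 were called in the interaction by limma, with 6, 3, 6 and 2 at an unadjusted p under 0.05. Over all genes, 16.2% had an unadjusted p under 0.05. The median interactions of the 4 lists were -0.01, -0.05, -0.24 and -0.06. Between genotypes at 6 h, 5 of the 22 endothelium markers were called lower in KO liver and 0 higher. Over all genes, 4.93% were called lower there. The summed macrophage intensity was 9840 and 9800 in KO liver at 6 h and 8700 and 9500 in wt liver at 6 h.

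Among signals that recruit and activate leukocytes, 1 gene of IL-1, TNF and NF-kB signalling and 1 chemokine receptor were called in the interaction, against 0.487% of all genes. Of 31 measured genes of IL-1, TNF and NF-kB signalling, 9 rose in KO liver and 22 in wt liver. Over all genes, 15.8% and 16.5% did. Only Sele, encoding the endothelial adhesion molecule E-selectin, was called in the interaction (-1.09 ± 0.20, adjusted p = 0.0452 in limma), and the list's median was -0.46. At an unadjusted p under 0.05, 14 of the 31 passed, beside 16.2% of all genes. Sele stood at 6.35 and 5.98 in KO liver at 6 h and 5.85 and 5.81 in untreated KO liver, against 7.35 and 7.10 in wt liver at 6 h and 5.76 and 5.86 in untreated wt liver. Both wt arrays at 6 h lay above all others. Sele was called in 2 of 8 fits without 1 array, and neither without KO 6 h replicate 2 nor without untreated KO replicate 2 (adjusted p of 0.0991 and 0.130).

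Tnfaip3, Rel and Nfkbia, a deubiquitinase, a subunit and an inhibitor of NF-kB signalling, had interactions of -2.57, -1.59 and -1.51 that were not called (adjusted p of 0.0600, 0.0566 and 0.0617 in limma). Among 30 chemokines and their receptors Cxcr2 was the 1 called gene, and 10 passed at an unadjusted p under 0.05. Cxcl1, a neutrophil chemokine, stood at 7.43 and 8.72 in KO liver at 6 h and 7.33 and 7.19 in untreated KO liver, against 10.65 and 10.31 in wt liver at 6 h and 7.34 and 7.20 in untreated wt liver. The KO arrays at 6 h lay above the untreated ones and apart from each other, and its interaction of -2.40 ± 0.46 was not called (adjusted p = 0.0566).

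Gprc5a, Cetn4, Nrg4 and Ivl were also in the class with a weaker rise and belong to none of the groups above. Gprc5a, an orphan receptor induced by retinoic acid, rose by 0.96 in KO liver and by 4.96 in wt liver. Its log2 intensity was 6.26 and 5.69 in KO liver at 6 h and 5.02 and 5.01 in untreated KO liver, against 10.56 and 9.43 in wt liver at 6 h and 4.93 and 5.13 in untreated wt liver, with an interaction of -4.01 ± 0.48 (adjusted p = 0.00749 in limma). Each 6 h group lay above its untreated group, and the groups at 6 h did not overlap.

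Cetn4 encodes a centrin, a calcium-binding protein of centrioles and cilia. It was at 4.64 and 4.26 in KO liver at 6 h and 4.48 and 4.42 in untreated KO liver, against 7.97 and 8.18 in wt liver at 6 h and 4.64 and 4.85 in untreated wt liver. At 2 h it was at 5.20 and 5.62 in KO liver against 8.93 and 9.02 in wt liver. The wt rise was present at both times, and the KO arrays stayed below the range of treated wt liver. The interaction was -3.33 ± 0.24 at 6 h (adjusted p = 0.000371 in limma). A second probe set of similar mean log2 intensity (5.82 against 6.02) gave -0.38, so the result rests on 1 of 2 probe sets.

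Nrg4, an EGF family ligand that acts on ErbB receptors, stood at 7.95 and 7.34 in KO liver at 6 h and 7.73 and 7.19 in untreated KO liver, against 10.49 and 10.00 in wt liver at 6 h and 6.88 and 7.55 in untreated wt liver. At 2 h it was at 9.68 and 10.32 in KO liver against 9.85 and 9.48 in wt liver, where the genotypes overlapped. The interaction at 6 h was -2.85 ± 0.44 (adjusted p = 0.0253 in limma), called in 3 of 8 fits without 1 array. Its adjusted p was 0.0764 without KO 6 h replicate 2, 0.0537 without untreated KO replicate 2 and 0.137 without both. Ivl, which encodes involucrin of the cornified envelope of skin, had a smaller interaction with little spread, -2.22 ± 0.15 (adjusted p = 0.000371), and was called without each array in turn and without both doubted arrays.

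Glycolytic enzymes were also found in this class. Of 27 genes of hypoxia and glycolysis, Pfkp and Pkm were called, both lower, against 0.399% of all genes. The list's median was -0.23. Pfkp, the platelet form of phosphofructokinase, stood at 7.20 and 7.13 in KO liver at 6 h and 7.41 and 7.46 in untreated KO liver, against 9.11 and 8.69 in wt liver at 6 h and 7.36 and 7.29 in untreated wt liver. The wt arrays at 6 h stood alone, and the KO arrays at 6 h lay slightly below untreated. The interaction was -1.84 ± 0.25 (adjusted p = 0.0133 in limma). Pkm, the pyruvate kinase gene of most tissues other than liver, had -1.12 ± 0.15 (adjusted p = 0.0124), or -0.81 by a second probe set. Neither was called without untreated KO replicate 2 (adjusted p of 0.0618 and 0.0560).

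Small nucleolar RNAs formed a further group, which was noticed after the values were seen and so has no test. The 83 genes hold 8 small nucleolar RNAs, all with a lower interaction, from -2.93 to -0.98, where 0.399% of all genes were called lower. Among the 60 measured, 53 had an interaction below 0, beside 7950 of all 17052 genes. Their median response was 0.11 in KO liver and 0.52 in wt liver, and their median interaction was -0.33. Small nucleolar RNAs guide chemical modification of ribosomal RNA, and most are processed from introns of host genes.

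Metallothionein 1, the zinc- and cadmium-binding protein of Mt1, rose in both genotypes. It was at 12.29 and 12.14 in KO liver at 6 h and 9.07 and 9.23 in untreated KO liver, against 12.61 and 12.44 in wt liver at 6 h and 8.58 and 8.52 in untreated wt liver. Its interaction of -0.91 ± 0.16 (adjusted p = 0.0394 in limma) came with a higher untreated level in KO liver by 0.60 ± 0.11 (adjusted p = 0.600) and a difference at 6 h of -0.31 ± 0.11 (adjusted p = 0.103). The interaction was called in 2 of 8 fits without 1 array, with an adjusted p of 0.105 without KO 6 h replicate 2 and 0.146 without untreated KO replicate 2.

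Of the genes controlled by bone morphogenetic proteins (BMPs), 3 had a higher interaction in KO liver. BMP ligands from sinusoidal endothelium signal to hepatocytes through receptor-activated SMADs, which induce Id1, Atoh8, Smad6, Smad7 and hepcidin (Hamp), the hormone that limits iron uptake. Of 26 measured genes of BMP and TGF-beta signalling, Id1, Atoh8 and Hamp were called in the interaction, against 0.088% of all genes called higher. The median of the list was 0.12, beside 0.03 over all genes. It had 14 members above 0 and 12 below, beside 9100 and 7950 of all 17052 genes. Without untreated KO replicate 2, 1 was called, and 2 were called without KO 6 h replicate 2.

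Id1, an inhibitor of basic helix-loop-helix factors, had a stronger rise in KO liver. It stood at 9.34 and 9.63 in KO liver at 6 h and 6.57 and 6.82 in untreated KO liver, against 7.34 and 7.90 in wt liver at 6 h and 7.82 and 7.47 in untreated wt liver. The KO arrays at 6 h were the highest and the untreated KO arrays the lowest, while the wt groups overlapped. The KO response was a rise of 2.79 ± 0.33 and the interaction 2.82 ± 0.47 (adjusted p = 0.0329 in limma). It was called in 2 of 8 fits without 1 array, with an adjusted p of 0.0991 without KO 6 h replicate 2 and 0.0947 without untreated KO replicate 2.

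Atoh8, a transcription factor downstream of BMP receptors, had called responses of opposite sign. It was at 8.28 and 8.63 in KO liver at 6 h and 7.998 and 8.05 in untreated KO liver, against 7.07 and 7.09 in wt liver at 6 h and 8.36 and 8.25 in untreated wt liver. It rose by 0.44 in KO liver and fell by 1.23 in wt liver, an interaction of 1.66 ± 0.17 (adjusted p = 0.00349 in limma) that was called in each of 18 alternative fits. Smad6 and Smad7, the inhibitory SMADs, had interactions of 0.63 ± 0.20 and 1.31 ± 0.51 that were not called (adjusted p of 0.168 and 0.242).

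Hamp and its neighbour Hamp2 had interactions of opposite sign, while both fell in wt liver. Hamp stood at 12.67 and 12.76 in KO liver at 6 h and 12.49 and 12.54 in untreated KO liver, against 11.81 and 11.47 in wt liver at 6 h and 12.71 and 12.72 in untreated wt liver. Its wt arrays at 6 h were the lowest of the 8. The KO response of 0.20 was not called, Hamp fell by 1.07 in wt liver, and the interaction was 1.28 ± 0.20 (adjusted p = 0.0272 in limma). It was called in 3 of 8 fits without 1 array, with an adjusted p of 0.0872 without KO 6 h replicate 2 and 0.0947 without untreated KO replicate 2.

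Hamp2 stood at 6.30 and 6.86 in KO liver at 6 h and 10.79 and 11.44 in untreated KO liver, against 9.83 and 9.58 in wt liver at 6 h and 11.98 and 11.65 in untreated wt liver. It fell by 4.54 in KO liver and by 2.10 in wt liver, an interaction of -2.43 ± 0.36 (adjusted p = 0.0226 in limma), with an adjusted p of 0.0706 without untreated KO replicate 2. The KO arrays at 6 h lay far below all others. The genes are similar copies, so a probe of one may take up RNA of the other. In KO liver at 6 h the Hamp2 probe set read 6.30 and 6.86 where Hamp stood at 12.67 and 12.76. Uptake between the probe sets was not tested, and the levels are uncertain to that extent.

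The upstream sequences of both genes are shown because the copies differed in response while their promoters are 91.1% identical over an aligned window of 303 columns. The stretches run from 160 to 41 bases before the annotated start and come from RefSeq on GRCm38.p6, the C57BL/6J reference and not the BALB/cByJ strain of the samples. Hamp lies at chr7:30944070-30944189 on the minus strand and Hamp2 at chr7:30924222-30924341 on the minus strand. Capitals mark the BMP response element core GGCGCC, the STAT pattern TTCNNNGAA and the AP-1 pattern TGANTCA, each searched on both strands.
Hamp: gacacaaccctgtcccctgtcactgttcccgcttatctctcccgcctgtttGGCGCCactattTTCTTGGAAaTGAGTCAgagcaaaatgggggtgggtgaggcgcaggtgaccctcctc
Hamp2: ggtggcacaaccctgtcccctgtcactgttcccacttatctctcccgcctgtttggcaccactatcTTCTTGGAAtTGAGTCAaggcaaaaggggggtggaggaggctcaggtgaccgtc
Both hold the STAT and AP-1 patterns next to each other, and GGCGCC was found in the window of Hamp and not of Hamp2. The cores occurred in 17.9% (GGCGCC), 7.59% (STAT) and 6.25% (AP-1) of the 13417 promoter windows of 300 bases available for tested genes, so a match is a description of the sequence and not a site shown to act.

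Genes that insulin represses and FOXO factors induce held 4 called members of 21, with Pck1, Igfbp1 and Tat lower in the interaction and Arrdc3 higher. Over all genes, 0.487% were called. In fasting, FOXO1 and glucocorticoids raise gluconeogenic enzymes, and IGFBP1 is secreted by hepatocytes. The median of the list was -0.54. Without KO 6 h replicate 2, 3 were called, and 2 without untreated KO replicate 2.

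Igfbp1, the binding protein of insulin-like growth factors, had called responses of opposite sign. It stood at 8.46 and 7.68 in KO liver at 6 h and 8.997 and 9.02 in untreated KO liver, against 11.66 and 11.08 in wt liver at 6 h and 9.06 and 9.29 in untreated wt liver. The KO arrays at 6 h were the lowest and the wt arrays at 6 h the highest. Igfbp1 fell by 0.94 in KO liver and rose by 2.19 in wt liver, an interaction of -3.13 ± 0.34 (adjusted p = 0.00476 in limma), called in each of 18 alternative fits. At 2 h it was high in both genotypes, at 11.47 and 11.64 in KO liver and 11.92 and 12.15 in wt liver.

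The Igfbp1 promoter is shown for the insulin response element core CAAAACA, marked in capitals. The stretch covers the same bases before the start as above and lies at chr11:7197627-7197746 on the plus strand of GRCm38.p6 in RefSeq.
Igfbp1: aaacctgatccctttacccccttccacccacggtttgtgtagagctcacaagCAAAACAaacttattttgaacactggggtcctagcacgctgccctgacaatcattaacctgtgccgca
This core occurred in 4.7% of the 13417 windows.

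Pck1 encodes the cytosolic phosphoenolpyruvate carboxykinase, a rate-limiting enzyme of gluconeogenesis. It was at 10.72 and 10.80 in KO liver at 6 h and 12.48 and 12.32 in untreated KO liver, against 12.18 and 12.04 in wt liver at 6 h and 12.32 and 12.23 in untreated wt liver. Both KO arrays at 6 h stood alone below the other 6. Pck1 fell by 1.64 in KO liver, the wt response of -0.16 was not called (adjusted p = 0.273), and the interaction was -1.48 ± 0.15 (adjusted p = 0.00324 in limma). At 2 h it was at 12.70 and 12.88 in KO liver and 12.97 and 12.97 in wt liver.

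Tat, tyrosine aminotransferase, fell by 0.59 in KO liver, with an uncalled wt response of 0.25 and an interaction of -0.84 ± 0.15 (adjusted p = 0.0424 in limma). G6pc, the enzyme that releases free glucose, was at 10.68 and 11.34 in KO liver at 6 h and 12.49 and 12.41 in untreated KO liver, against 11.97 and 11.79 in wt liver at 6 h and 12.22 and 12.46 in untreated wt liver. It fell by 1.45 in KO liver, and its interaction of -0.99 ± 0.26 was not called (adjusted p = 0.124). Klf15, a glucocorticoid-induced factor that activates amino acid breakdown, fell by 2.48 in KO liver and by 1.24 in wt liver, an interaction of -1.24 ± 0.19 (adjusted p = 0.0226). Of 8 fits without 1 array, Tat was called in 1 and Klf15 in 4, and neither without untreated KO replicate 2 (adjusted p of 0.0934 and 0.0537). Of 19 periportal hepatocyte genes, 3 were called, all lower, Pck1, Tat and the adhesion molecule Cdh1, against 0.399% of all genes. The list's median was -0.10.

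Arrdc3, an arrestin domain protein, stood at 10.09 and 10.56 in KO liver at 6 h and 9.52 and 9.77 in untreated KO liver, against 9.43 and 9.84 in wt liver at 6 h and 11.21 and 11.22 in untreated wt liver. At 2 h it was at 10.90 and 10.20 in KO liver against 8.77 and 8.65 in wt liver. It rose by 0.68 in KO liver and fell by 1.58 in wt liver, an interaction of 2.26 ± 0.33 (adjusted p = 0.0198 in limma). The untreated genotypes lay further apart than those at 6 h. The interaction was called in 2 of 8 fits without 1 array, with an adjusted p of 0.0660 without KO 6 h replicate 2 and 0.0560 without untreated KO replicate 2.

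**Figure D4:**
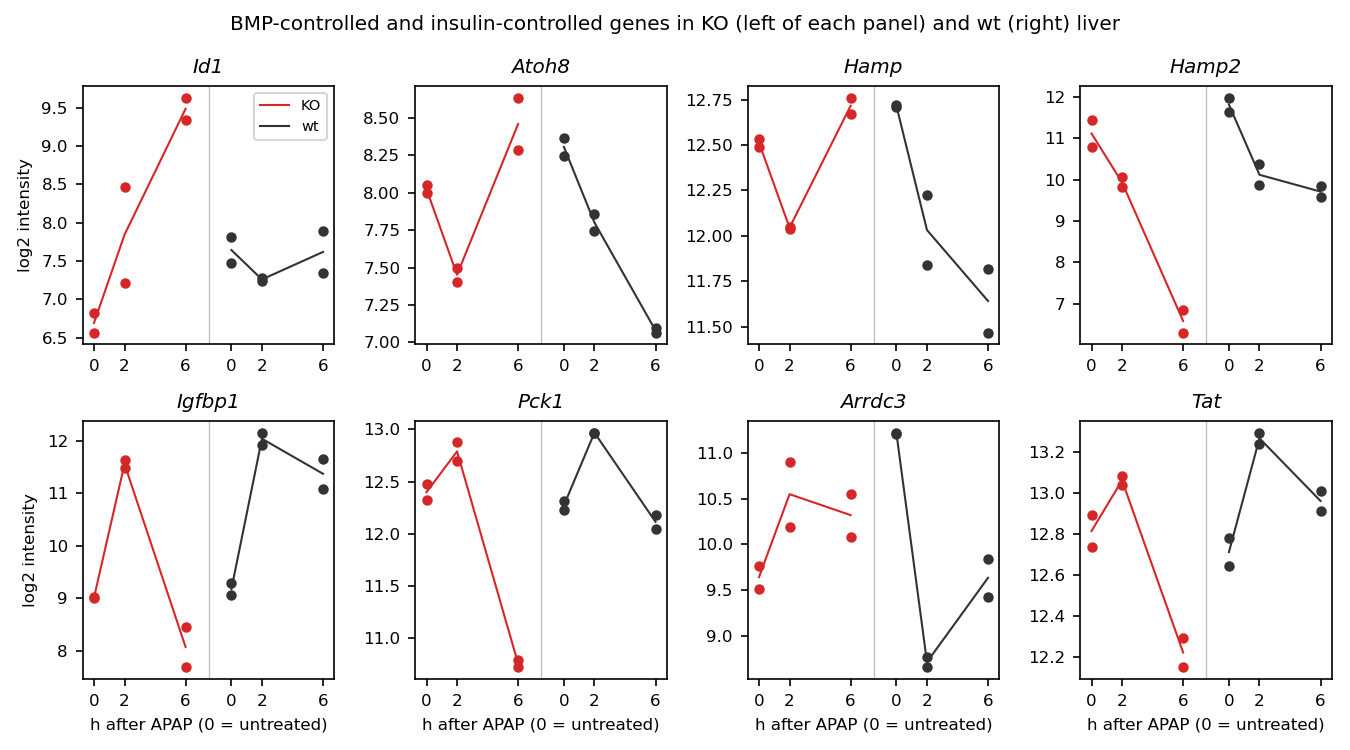
Log2 intensity of 4 BMP-controlled or hepcidin genes (upper row) and 4 insulin-controlled genes (lower row) at 0 (untreated), 2 and 6 h after APAP, KO in red at the left of each panel and wt in black at the right; points are arrays and lines join group means of 2 arrays. Igfbp1 is high in both genotypes at 2 h and lies apart at 6 h, at 8.46 and 7.68 in KO and 11.66 and 11.08 in wt liver.

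Alas2, the heme synthesis enzyme of erythroid cells, also had opposite responses. It stood at 7.64 and 7.62 in KO liver at 6 h and 9.30 and 8.38 in untreated KO liver, against 10.63 and 9.93 in wt liver at 6 h and 8.66 and 8.97 in untreated wt liver. It fell by 1.21 in KO liver and rose by 1.47 in wt liver, an interaction of -2.68 ± 0.43 (adjusted p = 0.0279 in limma) that was called in 3 of 8 fits without 1 array, with an adjusted p of 0.0837 without KO 6 h replicate 2. The summed intensity of the 5 erythroid markers was 651 and 716 in KO liver at 6 h and 2270 and 1440 in wt liver at 6 h. Slc4a1, the anion exchanger of red cells, had an interaction of -1.46 ± 0.39 that was not called (adjusted p = 0.123), and the part of blood cells in the result was not tested.

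Pbp2, Olfr502 and Hmga2 also fell in KO liver and rose in wt liver, with interactions of -1.43, -1.39 and -1.13, and Tex36 and Trpv3 did the reverse with 0.95 and 0.82. These 5 genes were dim, with values in the 8 arrays from 4.70 (Tex36) to 7.03 (Pbp2), near the minimum of 5 set on a gene's mean log2 intensity.

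Stronger rises in KO liver included an exporter and a factor of endoplasmic reticulum protein disposal. Abcc4, which pumps conjugates and bile acids from hepatocytes into the blood and is an NRF2 target, stood at 9.48 and 9.65 in KO liver at 6 h and 7.44 and 7.47 in untreated KO liver, against 7.83 and 7.72 in wt liver at 6 h and 7.33 and 7.67 in untreated wt liver. It rose by 2.12 in KO liver, the wt response of 0.28 was not called, and the interaction was 1.84 ± 0.24 (adjusted p = 0.0109 in limma). Both KO arrays at 6 h lay far above the other 6 arrays. It was called in 7 of 8 fits without 1 array, the exception being untreated KO replicate 2 (adjusted p = 0.0537). Abcc4 was the 1 called gene of 37 NRF2 targets, against 0.487% of all genes. Of the 37, 20 rose in KO liver and 13 in wt liver, against 15.8% and 16.5% of all genes. The list's median interaction was 0.19.

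Slc1a4, a neutral amino acid transporter, rose by 1.60 in KO liver, with an interaction of 1.95 ± 0.32 (adjusted p = 0.0308 in limma). Derl3, which draws misfolded proteins out of the endoplasmic reticulum, rose by 1.09 in KO liver, with an interaction of 1.47 ± 0.25 (adjusted p = 0.0391). Pfn2, an actin-binding profilin, rose by 1.71 in KO liver, with an interaction of 1.50 ± 0.25 (adjusted p = 0.0324). The zinc finger gene Zfp52 rose in both, by 1.65 in KO liver and 0.68 in wt liver. Of 8 fits without 1 array, Slc1a4 was called in 3, Pfn2 and Zfp52 in 2 each and Derl3 in 1. None of the 4 was called without KO 6 h replicate 2 (adjusted p of 0.0764 for Slc1a4, 0.0716 for Derl3, 0.0980 for Pfn2 and 0.0730 for Zfp52) or without untreated KO replicate 2 (0.111, 0.130, 0.120 and 0.0618).

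Herpud1, another gene of endoplasmic reticulum degradation, went the other way. It stood at 10.27 and 10.38 in KO liver at 6 h and 11.18 and 11.31 in untreated KO liver, against 11.61 and 11.39 in wt liver at 6 h and 11.17 and 11.27 in untreated wt liver. The KO arrays at 6 h were the lowest, and the interaction was -1.20 ± 0.16 (adjusted p = 0.0124 in limma), or an adjusted p of 0.0618 without untreated KO replicate 2. It was the 1 called gene of 19 for endoplasmic reticulum folding, against 0.487% of all genes. Of the 19, 17 had an interaction above 0, beside 9100 of all 17052 genes, and the median was 0.41.

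Other stronger falls in KO liver were Narf, Sftpa1, Aph1c and Tspan13, by 2.94, 2.31, 1.75 and 1.15 on the log2 scale. The wt response was a fall of 1.24 for Narf and of 0.59 for Sftpa1, and was not called for Aph1c (-0.04) and Tspan13 (0.15). Weaker falls were found for Slc17a4, a transporter of organic anions, with a fall of 0.61 in KO liver and 2.34 in wt liver, and for Dexi, with 0.47 in KO liver and 1.96 in wt liver. Cldn2, a tight junction claudin, had a KO response of 0.37 that was not called, and it fell by 1.18 in wt liver. Of 8 fits without 1 array, Dexi and Tspan13 were called in all 8, Narf in 7, Cldn2 in 5, and Sftpa1, Aph1c and Slc17a4 in 3 each.

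Several large arms of the APAP response held no called gene in limma's interaction. With 0.487% of all genes called, a count of 0 in lists of this size says little. Over all genes, 15.8% rose and 19.1% fell in KO liver, against 16.5% and 22% in wt liver. Heat shock proteins and co-chaperones rose in 19 of 21 members in KO liver and 18 in wt liver, with a median interaction of 0.02. Ribosome biogenesis genes rose in 28 of 29 members in KO liver and 27 in wt liver, and their median interaction was 0.17. Cholesterol synthesis genes fell in 19 of 21 members in KO liver and 14 in wt liver, with a median of -0.26. The integrated stress response (28 genes), p53 targets (31), the interferon response (39), the proteasome (33) and the components of PML nuclear bodies (27) also held 0 called genes, with medians of -0.10, -0.34, -0.13, 0.08 and 0.09. At an unadjusted p under 0.05 the interaction passed in 0 heat shock, 0 ribosome biogenesis and 0 proteasome genes, in 3 cholesterol synthesis genes and in 5, 12, 7 and 6 genes of the other 4 lists in the order given. Of 31 p53 targets, 24 had an interaction below 0, beside 7950 of all 17052 genes. Between genotypes at 6 h, 9 of the 31 were called lower in KO liver and 0 higher. Over all genes, 4.93% were called lower there. Over all genes 2764 (16.2%) had an unadjusted p under 0.05 in the interaction, so a missing call does not show equal responses.

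**Figure D5:**
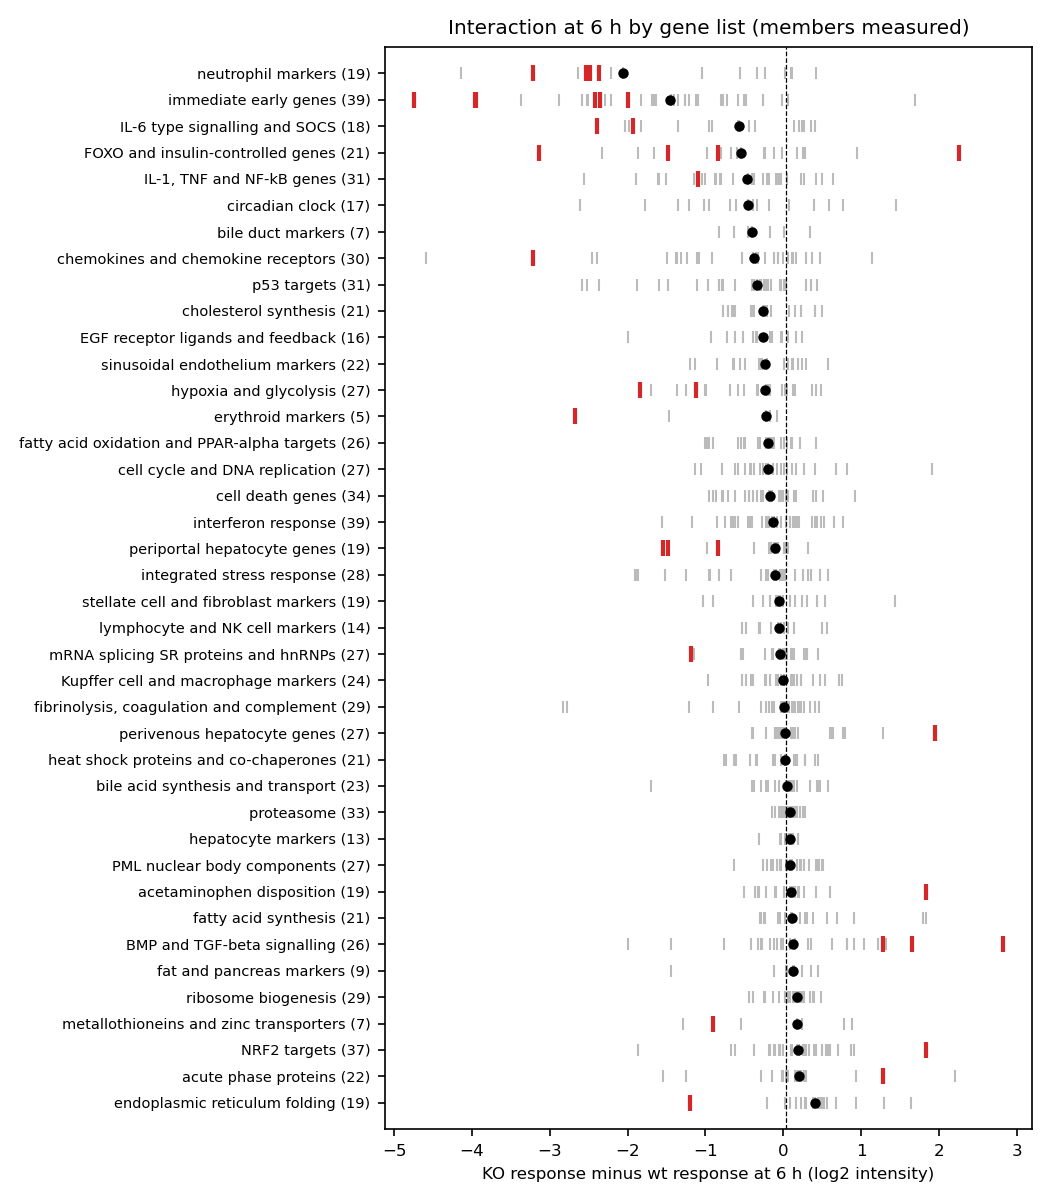
Interaction at 6 h (KO response minus wt response, log2 intensity) of the members of 40 gene lists; grey ticks are measured genes, red ticks are called genes, black dots are list medians, and the dashed line is the median of all genes tested (0.03). Neutrophil markers and immediate early genes have the lowest medians, at -2.06 and -1.45, and endoplasmic reticulum folding the highest, at 0.41.

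Chromosome 9, which carries Pml, holds 6 of the 83 called genes (7.23%) and 982 of the 17052 tested genes (5.76%).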

How the data were processed

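Liver RNA of 6 groups of 2 samples was hybridised to 12 arrays. The authors processed the arrays with RMA in Affymetrix Expression Console, per the submitters' processing notes, without a version; the values they deposited are RMA intensities that are not on a log scale, and log2 was taken here. Array medians were 79.9 to 90.1, and precision is limited by having 2 arrays a group. Of 35556 probe sets, 21218 carried 1 gene symbol in the platform annotation. The probe set with the highest mean stood for a gene, and genes with a mean log2 of at least 5 were tested (17052). limma 3.58.1 in R 4.3.3 fitted 6 group means to all 12 arrays (lmFit, eBayes without a trend; 6 residual and 4.33 prior degrees of freedom), with Benjamini-Hochberg adjustment within a comparison. Errors after ± are standard errors of the fit. The script was tested on simulated data.

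Among called genes, opposite means both responses called with opposite signs. Weaker means the wt response called and the KO response smaller and not called the other way; stronger is the converse. Named were Pml, up to 8 genes per class by size of the interaction with no overlap of responses, up to 4 members per list by p, and 2 genes on each side of the threshold. Predicted genes and small RNAs were counted. Members, lists and classes were chosen with earlier results of these data known; Zfp36, Egr2, Trem1, Ivl, Trpv3, Smad6, Smad7, Mpo, Elane, Ltf and Camp were chosen after their values were seen. Same-numbered samples deviated together weakly at most. Across genes, r was -0.08 to 0.15 in the 6 pairs of the 4 groups and -0.13 to 0.18 in the 15 pairs of all 6. Alternatives were no filter, a mean of at least 7, quantile normalization, median centring, log2 of the value plus 16, the mean of probe sets, a variance trend, the 8 arrays alone, the replicate block, arrays left out, classes by sign and a 2-fold minimum. Promoters came from RefSeq (GRCm38.p6); 60 of the 83 called genes had one.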

Additional observations from a re-analysis of the deposited data

Results flagged for a closer look

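Each result here was flagged because the effect of APAP at 6 h differed between KO and wt liver by limma's test of the interaction; groups of 2 arrays are too small for a test of single outlying samples. The count was 83 genes, and values are the KO response minus the wt response on the log2 scale.

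Among early and signalling genes with a weaker rise the interaction was -4.74 for Gadd45g, -3.97 for Myc, -3.95 for Fos, -2.43 for Ier2, -2.36 for Zfp36, -2.00 for Egr2, -2.40 for Pim3 and -1.93 for Socs3. Among the neutrophil markers and the adhesion molecule it was -3.22 for Cxcr2, -2.54 for S100a9, -2.50 for S100a8, -2.48 for Hdc, -2.37 for Trem1 and -1.09 for Sele. Other weaker rises gave -4.01 for Gprc5a, -3.33 for Cetn4, -2.85 for Nrg4, -2.22 for Ivl, -1.84 for Pfkp, -1.55 for Cdh1, -1.25 for Ptpre, -1.18 for the splicing kinase gene Clk1, -1.12 for Pkm and -0.91 for Mt1. The KO responses of these genes ranged from a called rise, as for Mt1, to an uncalled value below 0, as for Gadd45g, and all of them rose in wt liver.

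Weaker falls gave 1.73 for Slc17a4, 1.56 for Cldn2, 1.49 for Dexi, 1.28 for Hamp and 0.87 for Pcdh1. Stronger rises gave 2.82 for Id1, 1.95 for Slc1a4, 1.84 for Abcc4, 1.50 for Pfn2, 1.47 for Derl3 and 0.97 for Zfp52. Stronger falls gave -2.43 for Hamp2, -1.72 for Sftpa1, -1.71 for Aph1c, -1.70 for Narf, -1.48 for Pck1, -1.30 for Tspan13, -1.24 for Klf15, -1.20 for Herpud1 and -0.84 for Tat.

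Responses of opposite sign gave -3.13 for Igfbp1, -2.68 for Alas2, 2.26 for Arrdc3, 1.66 for Atoh8, -1.43 for Pbp2, -1.39 for Olfr502, -1.13 for Hmga2, 0.95 for Tex36 and 0.82 for Trpv3.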

How the results depend on the processing

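All 83 called genes kept the sign of the interaction in every alternative fit that held them (55 at a mean log2 of at least 7), with a median ratio to the reported value of 0.93 to 1.06. Without 1 array the count was 18 to 286, with 13 to 214 weaker, 2 to 44 stronger and 2 to 33 opposite. By array it was 40 and 18 without untreated KO replicates 1 and 2, 21 and 31 without untreated wt replicates 1 and 2, 286 and 46 without KO 6 h replicates 1 and 2, and 43 and 223 without wt 6 h replicates 1 and 2. A lone array was assumed to vary like the other groups. Without both untreated KO replicate 2 and KO 6 h replicate 2, 13 genes were called, 10 weaker, 2 stronger and 1 opposite, of which 11 were among the 83. The stronger class, 18 as reported, held 10 genes at a mean of at least 7, 11 after quantile normalization and 11 with the 8 arrays alone, where 62 genes were called in all (47 of the 83). With the replicate number as a block 72 genes were called (60 of the 83) and the stronger class held 11; the numbers share no stated source. By signs and sizes alone the classes were 30 weaker, 10 stronger and 43 opposite. The interaction of Pml was -0.10 without untreated wt replicate 2 and -0.40 without untreated KO replicate 1, with 0.04 as reported, with a range of -0.40 to 0.47 over the 8 arrays left out in turn, and was called in neither. The cause of these shifts was not tested. Of 83 calls, 70 were of at least 2-fold.

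Limits are the 2 arrays a group, a spread estimated over all 6 groups, and probe sets near background, where differences are compressed. A missing call does not show equal responses, as 2764 genes had an unadjusted p under 0.05.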

Other observations

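At 2 h the interaction was called in 5 genes of 17052 (0.0293%), which share their untreated arrays with the 6 h values. Arrdc3 was at 3.41 and Id2 at 1.77 on the log2 scale, while Cetn4 was at -3.27, Sftpa1 at -2.52 and Col12a1 at -2.07. Col12a1, a fibril-associated collagen, stood at 6.52 and 6.30 in KO liver at 6 h and 5.73 and 5.49 in untreated KO liver, against 7.26 and 7.35 in wt liver at 6 h and 5.23 and 5.34 in untreated wt liver. Sftpa1, a surfactant protein of the lung, was at 5.76 and 5.99 in KO liver at 2 h, against 8.23 and 8.10 in wt liver at 2 h.

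Circadian clock genes held 0 called members of 17 in limma's 6 h interaction, against 0.487% of all genes. At an unadjusted p under 0.05, 5 passed, beside 16.2% of all genes, and the list's median was -0.45. Of 27 genes of mRNA splicing, Clk1, a kinase of SR proteins, was called, against 0.487% of all genes. It stood at 9.50 and 9.28 in KO liver at 6 h and 9.64 and 9.87 in untreated KO liver, against 10.78 and 10.42 in wt liver at 6 h and 9.69 and 9.88 in untreated wt liver, where only the wt arrays at 6 h lay above the rest. It was called in 2 of 8 fits without 1 array. Its paralog Clk4 had an interaction of -1.15 that was not called (adjusted p = 0.0937 in limma). Acute phase proteins other than Hamp were not called, and the median of their 22 genes was 0.20.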
